A study of Rattus norvegicus with 18 samples.

Results

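The complement genes described here encode the C1q chains (C1qa, C1qb, C1qc), the protease C1s, the convertase components C2, C3 and factor B (Cfb), the C1 inhibitor (Serping1) and the receptor for the anaphylatoxin C3a (C3ar1). These 9 genes were chosen by symbol, and 7 of them had a probe set that carries a single gene symbol, of 14217 such genes on the array. C2 and Cfb had none: the probe sets that carry their symbols carry both, so no value is given for either. Each of the 7 genes was measured by 1 probe set, and all 7 were bright enough to be tested in the heart grafts.

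Expression was measured on 18 arrays from a rat heart transplant model, in which WF hearts were placed in the abdomen of ACI recipients, all animals being adult males of inbred strains. Recipients were given cyclosporine (CsA) plus peptide, CsA alone, or no drug. CsA, which keeps T cells from being activated by inhibiting calcineurin, was given by gavage at 10 mg/kg/day over the first days after transplantation, a dose the submitters call sub-therapeutic. The peptide, an allochimeric form of the class I antigen RT1.A, was given at 1 mg/kg into the portal vein at transplantation. No sham injection is described, so the peptide and its injection cannot be told apart. Every group, the untreated one included, carried an allograft, so no ungrafted heart serves as a baseline. Each tissue, T cells and heart allografts, gave 1 array for each treatment on each of days 1, 3 and 7. T cells and hearts alike carry the strain label Wistar Furth, and the organ and animal the T cells came from are not settled by the labels used here.

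Complement is a cascade of plasma proteins that marks and lyses cells and recruits leukocytes. In the classical pathway C1q binds antibody on a cell surface, the attached protease C1r activates C1s, which cleaves C4 and C2, and the resulting convertase splits C3 into C3b, which stays on the target, and C3a, which acts on leukocytes through C3ar1. Plasma C3 comes mainly from the liver, whereas C1q is made chiefly by macrophages and dendritic cells, and Serping1 blocks C1r and C1s. In grafted organs complement is known both as an effector of antibody-mediated injury and as a product of the graft's own cells.

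In the RefSeq annotation of the rat assembly GRCr8, C1qa, C1qc and C1qb lie next to each other on chromosome 5, within 17658 bases (chr5:154402276-154419933). C1s lies at chr4:159116549-159128736, C3ar1 at chr4:157747419-157756609, Serping1 at chr3:90249410-90259299 and C3 at chr9:2174412-2201339. The promoters of C1qa and C1qb are shown because these neighbouring genes moved together in the grafts (values below). Both are on the minus strand, read 5' to 3' from 250 bases before to 50 bases after the RefSeq start, C1qa at chr5:154419884-154420183 and C1qb at chr5:154407778-154408077. Capitals mark matches to either of 2 patterns searched on both strands, namely an IRF site (GAAA, any 2 bases, GAAA) and GAGGAA (a PU.1 core). PU.1 is a transcription factor of myeloid cells, and IRF factors act in interferon signalling.
C1qa: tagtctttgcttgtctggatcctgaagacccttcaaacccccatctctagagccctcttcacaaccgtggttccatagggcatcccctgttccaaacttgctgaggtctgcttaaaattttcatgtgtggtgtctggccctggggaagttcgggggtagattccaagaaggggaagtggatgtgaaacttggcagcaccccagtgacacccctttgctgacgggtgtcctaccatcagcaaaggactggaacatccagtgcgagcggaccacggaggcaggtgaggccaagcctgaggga
C1qb: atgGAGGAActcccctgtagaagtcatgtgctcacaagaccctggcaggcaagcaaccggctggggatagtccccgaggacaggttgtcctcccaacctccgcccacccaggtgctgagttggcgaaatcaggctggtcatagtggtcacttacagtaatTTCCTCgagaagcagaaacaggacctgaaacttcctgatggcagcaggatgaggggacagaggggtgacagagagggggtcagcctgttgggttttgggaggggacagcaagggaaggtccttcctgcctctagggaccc
The C1qb window held GAGGAA at position -247 and its reverse complement TTCCTC at -90, and the C1qa window held neither pattern. In all 33469 promoters of the RefSeq table, the IRF pattern was present in 3.92% and GAGGAA in 27.6%. Of the 7 genes, 4 had a promoter in this table, and those of C3 and C3ar1 held neither pattern. A match is a description of letters and does not show a site in use.

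Intensities were similar in scale over the arrays, with upper quartiles of 728 to 740 in T cells and 743 to 758 in heart. The tissue labels were checked against summed marker intensities, with no test read. The 10 T cell markers summed to 48081 to 69165 in T cells and to 1385 to 23563 in heart. The 8 heart muscle markers summed to 97341 to 123080 in heart and to 174 to 313 in T cells. On every T cell array all 8 lay below the 40th percentile of the array. The 4 B cell markers summed to 7000 to 22956 in T cells and to 260 to 774 in heart, where only 2 of the 4 were bright enough to be tested. The untreated day 1 T cell array stood apart, with a summed neutrophil marker intensity of 36181, against 1053 to 3179 in the other T cell arrays. The actin 3'/5' signal ratio in heart, a sign of RNA integrity, was 1.84 to 2.44 on day 1, 1.64 to 1.87 on day 3 and 1.41 to 1.43 on day 7, so it moved with day, and its part in the day differences was not tested. Intensity is a relative unit within a probe set, and levels of different genes are not compared.

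In heart allografts all 7 genes rose between day 1 and day 7, at an adjusted p below 0.05 in limma, where 30.9% of all probe sets tested did so. C3 rose most, 12.5-fold, the C1q genes 4.81-fold to 5.58-fold, and Serping1, C3ar1 and C1s less than 1.9-fold. These are means of 3 same-treatment differences on the scale log2(intensity + 16), which understates the change of dim genes. Because whole tissue was measured, more cells of a type and more RNA per cell cannot be told apart.

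**Figure D1:**
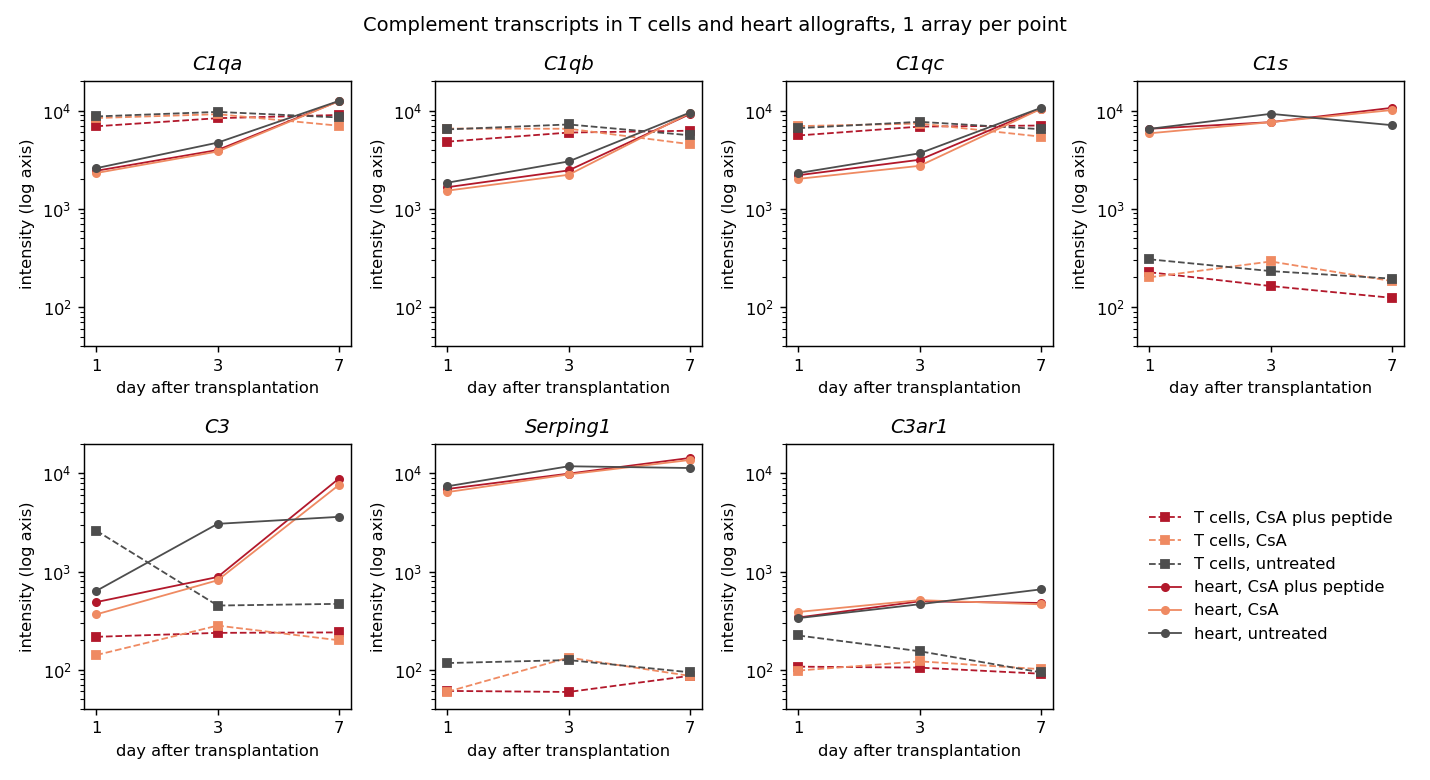
Intensity (logarithmic axis) of the 7 complement genes by day after transplantation, 1 panel per gene and 1 point per array, with T cells as dashed lines and squares and heart allografts as solid lines and circles. The C1q genes climb in heart under every treatment and stay level in T cells, while C3 in heart crosses over by treatment between day 3 and day 7.

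C1qa encodes the A chain of C1q. Its heart intensities on days 1, 3 and 7 were 2438, 3968 and 12504 with CsA plus peptide, 2316, 3833 and 12481 with CsA, and 2594, 4718 and 12542 in untreated grafts. The 3 days did not overlap, and on day 7 the 3 treatments lay close together. Day 3 exceeded day 1 by 0.76 ± 0.06 (log2 difference ± SE, 3 pairs of arrays, adjusted p 0.00115), and day 7 exceeded day 3 by 1.59 (adjusted p 2.86e-06). From day 1 to day 7 the difference was 2.35 ± 0.06 (adjusted p 8.42e-07).

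C1qb and C1qc, the other chains, had the same course. C1qb in heart read 1659, 2461 and 9217 with CsA plus peptide, 1531, 2221 and 9444 with CsA, and 1844, 3036 and 9553 in untreated grafts on days 1, 3 and 7. C1qc read 2198, 3159 and 10456 with CsA plus peptide, 2018, 2739 and 10428 with CsA, and 2311, 3675 and 10667 in untreated grafts. For both genes every day 7 array exceeded every day 3 array, and every day 3 array exceeded every day 1 array. The day 7 minus day 1 difference was 2.48 ± 0.08 for C1qb and 2.27 ± 0.07 for C1qc (adjusted p 8.8e-07 for each). Day explained 98.6% to 99.3% of the sum of squares of the C1q genes over the 9 heart arrays, against a median of 78.9% over all probe sets tested. Between C1qa, C1qb and C1qc, r over the 9 heart arrays was at least 0.9949 (a description, since the arrays share their days).

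The macrophage marker list moved in part with the C1q genes in heart. Its summed intensity was 13151 to 14341 on day 1, 20751 to 28015 on day 3 and 39912 to 46700 on day 7. Between day 1 and day 7, 8 of its 9 tested genes rose with none lower, where 30.9% of all probe sets rose. Of the 9 genes 7 rose between day 3 and day 7, where 26.9% of all probe sets did. Between the same days Cd163, a scavenger receptor of macrophages, fell by 0.55 (adjusted p 0.0114) and Mrc1 fell by 0.45 (adjusted p 0.0028). Between day 1 and day 7 Cd68, a lysosomal protein of macrophages, rose by 2.13 ± 0.08, and Csf1r, the receptor that macrophages need to survive, by 1.77 ± 0.09. Mrc1, a mannose receptor of resident macrophages, differed by 0.17 ± 0.09 between day 1 and day 7 and did not pass. The part of macrophage number in the C1q values was not tested.

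C1s encodes the protease that C1r activates within the C1 complex. In heart it read 6529, 7626 and 10672 with CsA plus peptide, 5871, 7627 and 10126 with CsA, and 6515, 9266 and 7105 in untreated grafts on days 1, 3 and 7. Day 7 was the highest day in both CsA groups, whereas in untreated grafts day 3 was. Day 7 minus day 1 was 0.54 ± 0.15 (1.45-fold, adjusted p 0.0138). The call was lost without the CsA arrays (0.42, adjusted p 0.122) or without the CsA plus peptide arrays (0.45, adjusted p 0.0836). Neither day 3 minus day 1 (0.37 ± 0.15, adjusted p 0.106) nor day 7 minus day 3 (0.17, adjusted p 0.368) passed over the 3 treatments, and day 3 minus day 1 passed without the untreated arrays.

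Serping1 encodes C1 inhibitor, the serpin that inactivates C1r and C1s. Its heart intensities were 6923, 9928 and 14329 with CsA plus peptide, 6435, 9747 and 13665 with CsA, and 7376, 11790 and 11318 in untreated grafts on days 1, 3 and 7. All day 1 arrays lay below all later arrays, and the later days overlapped through the untreated grafts. Day 3 exceeded day 1 by 0.60 ± 0.11 (adjusted p 0.00782) and day 7 exceeded day 1 by 0.92 ± 0.11 (adjusted p 0.000153). Its day 7 minus day 3 difference was smaller, 0.32 ± 0.11 (adjusted p 0.0348), and did not pass without the CsA arrays (0.23, adjusted p 0.232) or without the CsA plus peptide arrays (0.21, adjusted p 0.249). It was 0.51 without the untreated arrays (adjusted p 0.000187), and it missed the threshold without a variance trend (adjusted p 0.0553). The day 3 minus day 1 call of Serping1 was lost without the CsA arrays (adjusted p 0.0525).

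C3 is the component on which all activation routes converge. In heart it read 488, 879 and 8842 with CsA plus peptide, 366, 814 and 7603 with CsA, and 635, 3058 and 3603 in untreated grafts on days 1, 3 and 7. Untreated grafts were thus the highest group on day 3 and the lowest on day 7. The mean day 7 minus day 1 difference of 3.64 ± 0.51 (adjusted p 0.000403) was larger than that of 99.8% of the probe sets tested. Day 7 exceeded day 3 by 2.25 ± 0.51 (adjusted p 0.00643), a call lost without the CsA arrays (1.77, adjusted p 0.0764) or without the CsA plus peptide arrays (1.72, adjusted p 0.072). Day 3 minus day 1 was 1.40 ± 0.51 and did not pass over the 3 treatments (adjusted p 0.0779), but passed without the untreated arrays.

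Of 9 hepatocyte markers, Alb, Apoa1 and Fgb lay below the 40th percentile of the array in all 18 arrays, while others lay above it on some. Summed over the 9, intensity in heart was 1470 to 1911 on day 1, 1771 to 1999 on day 3 and 1108 to 1219 on day 7. In T cells the sum lay between 578 and 718.5. Of 4 hepatocyte markers tested in heart none rose between day 1 and day 7 and 2 fell, where 33.8% of all probe sets fell. The fibroblast marker sum in heart was 53316 to 58881 on day 1, 88474 to 94321 on day 3 and 59972 to 81385 on day 7. Genes induced by interferon gamma rose in heart between day 1 and day 7 for 12 of 12 tested (14 listed), where 30.9% of all probe sets rose. Their median difference was 3.01, against a median of -0.02 over all probe sets. Their summed intensity was 10047 to 12297 on day 1, 10393 to 18524 on day 3 and 82525 to 91656 on day 7. The part of these lists in the C3 values was not tested.

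C3ar1 encodes the receptor for C3a. Its heart intensities were 340, 497 and 478 with CsA plus peptide, 387, 511 and 463 with CsA, and 335, 464 and 658 in untreated grafts on days 1, 3 and 7. Day 1 lay below the later days without overlap, and the untreated day 7 graft held the highest value of the 9 heart arrays. Day 3 exceeded day 1 by 0.45 ± 0.13 (adjusted p 0.0376), a call lost under quantile normalization (adjusted p 0.0526) and under centring on array medians (adjusted p 0.0595), and without the CsA arrays (0.092) or the CsA plus peptide arrays (0.183). Day 7 exceeded day 1 by 0.55 ± 0.13 (adjusted p 0.00639), or by 0.36 without the untreated arrays (adjusted p 0.0114), whereas day 7 minus day 3 was 0.10 (adjusted p 0.549).

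Between day 1 and day 3 the count of rising genes was 5 of 7, where 14.6% of all probe sets rose. Without the untreated arrays all 7 were called. Centring on array medians left 4 of 7 called, and it moved the higher share of all calls in that comparison to 35.2%, against 53.1% as deposited. Between day 3 and day 7 the count was also 5 of 7, where 26.9% of all probe sets rose.

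T cells gave another picture. None of the 5 genes tested there (the C1q genes, C1s and C3) passed in any comparison of days, and limma called 0.576% of all probe sets between day 1 and day 7 and 0% in the other 2 day comparisons (1617 for day 3 minus day 1 and 1048 for day 7 minus day 3 at p below 0.05 before adjustment). Of the 5, only C1s between day 1 and day 7 had a p below 0.05 before adjustment (-0.51 ± 0.19, adjusted p 0.158). C3ar1 and Serping1 lay above the 40th percentile of the array in only 2 and 1 of the 9 T cell arrays, so they were not tested within T cells.

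The C1q genes were nevertheless bright on the T cell arrays. C1qa read 6924, 8370 and 9028 with CsA plus peptide, 8399, 9190 and 7013 with CsA, and 8719, 9702 and 8517 in untreated T cells on days 1, 3 and 7. C1qb ran from 4551 through a median of 6238 to 7225 over the 9 T cell arrays, and C1qc from 5429 through 6872 to 7685. In T cells day 7 minus day 1 was 0.03 for C1qa, -0.12 for C1qb and -0.02 for C1qc. Summed macrophage markers on the same arrays ran from 18261 to 45038, against 13151 to 46700 in heart. Of the 10 macrophage markers, 2 were called higher in T cells than in heart and 3 lower, with a median difference of -0.19. Among all probe sets 47.9% were higher and 35.5% lower. Only 9 of the 10 were bright enough to be tested within heart, so the 2 values that follow are given with no test read. Cd5l, a protein secreted by tissue macrophages, was higher in T cells by 6.15 on the log2 scale. Cd14, a monocyte coreceptor for lipopolysaccharide, differed by -3.46. Whether macrophages contributed to the C1q signal of the T cell samples was not tested.

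C1s, Serping1 and C3ar1 gave lower values in T cells than in heart. C1s ran from 124 through a median of 201 to 306, Serping1 from 59.3 through 86.6 to 133, and C3ar1 from 91.0 through 105 to 223. C3 read 216, 237 and 240 with CsA plus peptide, 141, 281 and 199 with CsA, and 2603, 450 and 468 in untreated T cells on days 1, 3 and 7. Every untreated C3 array exceeded every treated one, and the untreated day 1 array, the one rich in neutrophil markers, held the highest value. It also held the highest C3ar1 value and the highest macrophage marker sum, 45038, against 18261 to 34252 in the other T cell arrays. Its B cell marker sum was the highest (22956, against 7000 to 14852) and its T cell marker sum the lowest (48081, against 60456 to 69165). The part of these cells in the C3 value was not tested.

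With both tissues in 1 fit, T cells minus heart was -5.13 ± 0.16 for C1s (adjusted p 9.29e-14) and -2.18 ± 0.58 for C3 (adjusted p 0.00253). Serping1 and C3ar1 entered this fit only through heart, and most of their T cell values lay below the 40th percentile of the array, so they are given as values with no test. Serping1 lay between 59.3 and 133 in T cells, against 6435 to 14329 in heart, and C3ar1 between 91.0 and 223 in T cells, against 335 to 658 in heart. T cells were lower for C1s, Serping1 and C3ar1 in all 9 same-treatment, same-day pairs, and for C3 in 8 of 9, the untreated day 1 pair being the exception. Among all probe sets 35.5% were lower in T cells and 47.9% higher. The C1q genes were higher in T cells on average, by 0.73 ± 0.26 for C1qa (adjusted p 0.0155), 0.79 ± 0.30 for C1qb (adjusted p 0.0229) and 0.67 ± 0.26 for C1qc (adjusted p 0.0288), where the median of all probe sets was 0.15. That median was 0.22 under quantile normalization and 0.25 under centring.

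Behind the C1q average lay a change of direction with day. T cells minus heart for C1qa was 1.70 ± 0.18 on day 1, 1.12 ± 0.12 on day 3 and -0.62 ± 0.19 on day 7 (mean ± SD over the 3 treatments). For C1qb it was 1.81 ± 0.28, 1.36 ± 0.17 and -0.79 ± 0.25, and for C1qc 1.54 ± 0.22, 1.20 ± 0.20 and -0.74 ± 0.19. Thus T cells were above heart on days 1 and 3 and below it on day 7. The mean tissue calls of the C1q genes were lost without the day 1 arrays (0.25, 0.28 and 0.23 for C1qa, C1qb and C1qc, adjusted p 0.423 to 0.513) or without the day 3 arrays (0.54, 0.51 and 0.40, adjusted p 0.215 to 0.347). Without the day 7 arrays the differences were larger, at 1.41, 1.58 and 1.37. With treatment and day combined as a block, C1qb (adjusted p 0.0547) and C1qc (0.0655) also missed the threshold, as did C1qc without the untreated day 1 T cell array (0.60, adjusted p 0.0575). The C3 difference shrank to -1.07 (adjusted p 0.05001) without the day 7 arrays.

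The difference between tissues in the day 7 minus day 1 change was itself tested, and the 5 genes that were tested in each tissue all passed as lower in T cells, where 23.5% of all probe sets did. The change in T cells minus that in heart was -4.26 ± 0.87 for C3 (adjusted p 0.00174), -2.32 ± 0.13 for C1qa, -2.60 ± 0.18 for C1qb and -2.29 ± 0.14 for C1qc (adjusted p at most 7.38e-07 for these 3). C1s differed by -1.05 ± 0.25 (adjusted p 0.00485). For C3ar1 and Serping1, dim in T cells, the values were -0.98 and -0.72, or -0.65 and -0.45 without the untreated day 1 T cell array, and no test is read from them. For day 3 minus day 1 only C1qa passed (-0.57 ± 0.13, adjusted p 0.0249, with 4.61% of all probe sets lower), and without the same array it did not (-0.51, adjusted p 0.0592), nor with the block (adjusted p 0.0526).

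**Figure D2:**
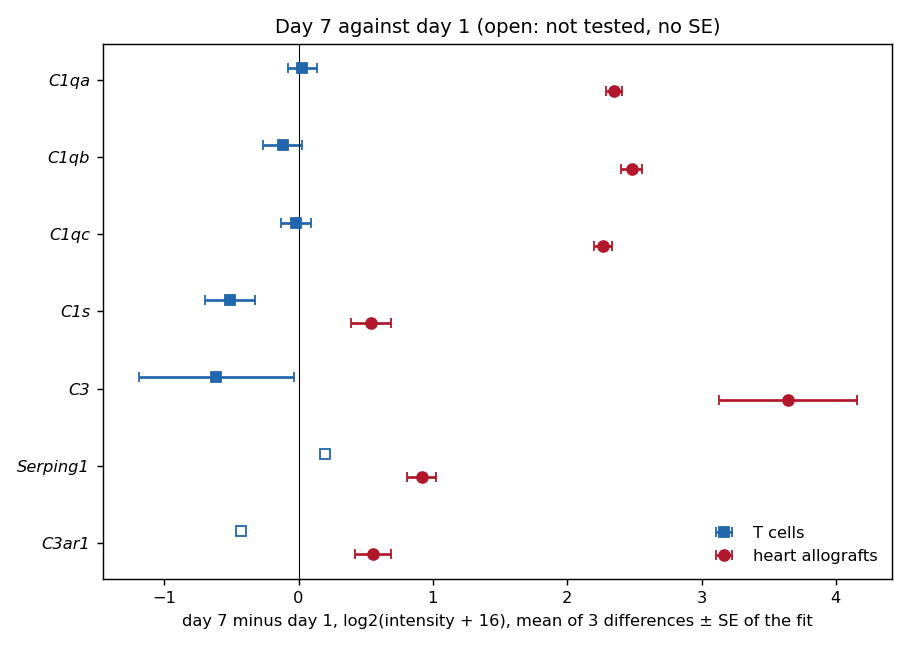
Day 7 minus day 1 difference (log2 scale, point and SE over 3 same-treatment pairs) for each complement gene in T cells and in heart allografts, with open symbols for genes not tested in T cells. Heart points lie to the positive side for all 7 genes, up to 3.64 for C3, while the C1q points in T cells lie near 0.

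The 3 treatment groups were then compared over the days, and in heart none of the 7 genes passed. CsA minus untreated was -0.16 ± 0.06 for C1qa (adjusted p 0.399), -0.24 ± 0.08 for C1qb (adjusted p 0.323) and -0.22 ± 0.07 for C1qc (adjusted p 0.33), negative on all 3 days for each. CsA plus peptide minus untreated was -0.11, -0.17 and -0.11 for the same genes, again negative on all 3 days and with adjusted p of 0.328 to 0.476. C3 differed by -0.53 ± 0.51 under CsA (adjusted p 0.745) and by -0.29 under CsA plus peptide (adjusted p 0.813), each relative to the same untreated arrays. CsA plus peptide minus CsA ran from -0.06 (C3ar1) to 0.24 (C3), with adjusted p of at least 0.967. Across all probe sets limma called 0% in each of these 3 comparisons. Before adjustment, p lay below 0.05 for the 3 C1q genes in CsA minus untreated and for no other member in any of the 3. Of all probe sets it did so for 3157 in CsA plus peptide minus untreated, 2287 in CsA minus untreated and 954 in CsA plus peptide minus CsA.

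Averaging over days covers the crossover of C3, C1s and Serping1, so 1 further fit, chosen after these values were seen, joined both CsA groups and compared their day 7 minus day 3 change with that of untreated grafts. It rests on 1 untreated array per day, its spread comes from the 2 CsA groups, and it was built on the crossover already seen, so its values for C3, C1s and Serping1 describe that crossover and are no independent test of it. The difference was 3.02 for C3, 0.83 for C1s and 0.57 for Serping1. With the variance trend limma placed these 3 of 7 genes past the threshold, and 1.1% of all probe sets in either direction. The C1q genes differed by 0.27 to 0.34 (adjusted p 0.182 to 0.346) and C3ar1 by -0.58 ± 0.16 (adjusted p 0.147), and none of these passed. With a prior spread common to all probe sets in place of one that follows the mean signal, limma called 0 of the 7 and none of all probe sets (C3 adjusted p 0.0839, C1s 0.134, Serping1 0.189). Serping1 also did not pass under centring on array medians (0.53, adjusted p 0.111).

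C1r, the partner protease of C1s, had the same crossover, with 3051, 3607 and 6314 under CsA plus peptide, 2920, 3736 and 5969 under CsA, and 3151, 4575 and 3850 in untreated grafts. In the fit that joined the CsA groups, the C1r difference was 0.99. As for C3, C1s and Serping1, this value describes the crossover and is no independent test of it. On day 3 the summed interferon gamma list read 10584 with CsA plus peptide, 10393 with CsA and 18524 in untreated grafts, and on day 7 it read 91656, 86388 and 82525. In the fit 2 of its 12 genes passed as higher (median 0.63), as did 1 of 7 fibroblast markers (median 0.41), 0 of 9 macrophage markers (median 0.23) and 0 of 6 neutrophil markers (median 1.01). Summed neutrophil markers on day 3 read 9173 with CsA plus peptide, 10444 with CsA and 24596 in untreated grafts. The part of these lists in the crossover was not tested.

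**Figure D3:**
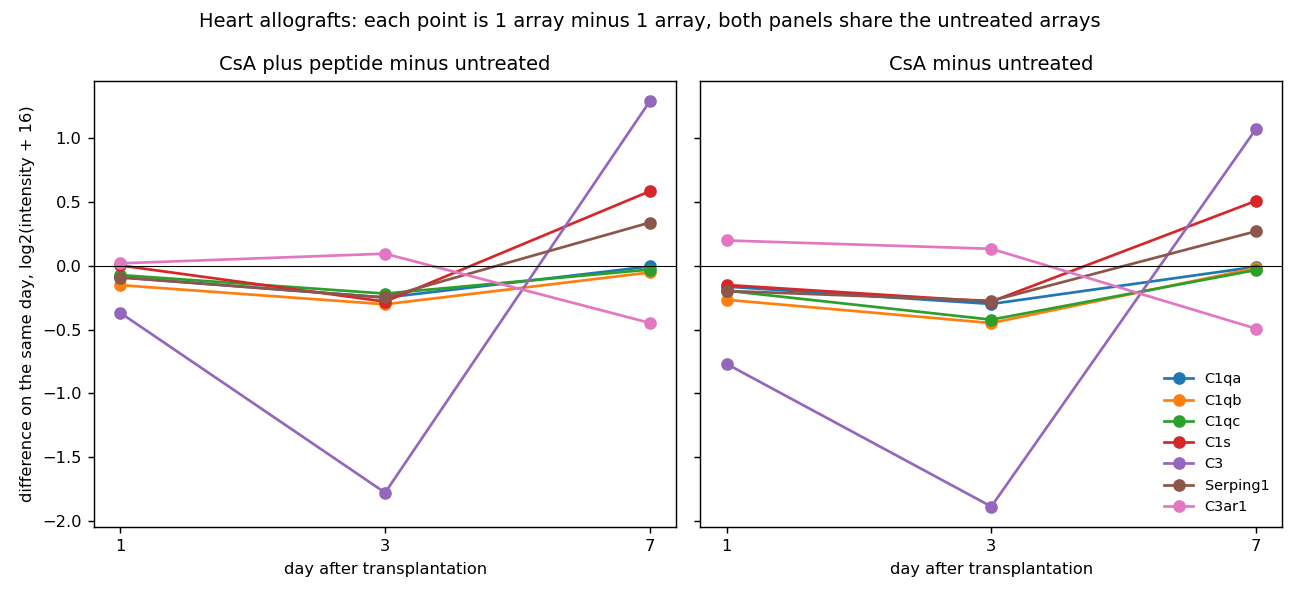
CsA plus peptide minus untreated and CsA minus untreated on days 1, 3 and 7 in heart allografts (log2 difference, 1 array against 1, with the untreated arrays shared), 1 panel per comparison and 1 line per gene. C3, C1s and Serping1 lie below 0 on day 3 and above 0 on day 7 in both comparisons.

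In T cells no treatment comparison passed for any of the 5 genes, and limma called 0% of all probe sets. Before adjustment, p lay below 0.05 for 4631 probe sets in CsA plus peptide minus untreated (C3 and C1s among them), 2216 in CsA minus untreated (C3) and 855 in CsA plus peptide minus CsA (no member). C3 was the furthest from 0 of these genes, at -1.77 ± 0.58 for CsA plus peptide (adjusted p 0.139) and -1.96 ± 0.58 for CsA (adjusted p 0.362), lower than untreated on all 3 days in each. Without the day 1 arrays the 2 differences were -0.90 (adjusted p 0.0259) and -0.91 (adjusted p 0.461), and without the untreated day 1 array alone they were -0.94 (adjusted p 0.267) and -1.14 (adjusted p 0.346). Whether a treatment difference depended on the tissue was tested too, and none of the 5 genes passed for any of the 3 treatment pairs. There limma called at most 0.00448% of all probe sets (0% for CsA plus peptide minus CsA). Before adjustment, C1s had a p below 0.05 for CsA plus peptide minus untreated, with an adjusted p of 0.21. For Serping1 and C3ar1, dim in T cells, no test is read.

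Of 41 other complement genes listed, 32 had a probe set and 23 were tested in heart. By day 7 of the grafts 12 had risen and 5 had fallen, with a median difference of 0.33, where 30.9% of all probe sets rose and 33.8% fell. Among the initiating components 3 of 7 rose and 2 fell. Both alternative pathway genes tested rose, Cfp (properdin, which stabilizes the C3 convertase) by 2.48 ± 0.24 and Cfd (factor D, the protease that cleaves factor B) by 2.41 ± 0.27. C6, a component of the membrane attack complex, rose by 2.26 ± 0.27, whereas C9, the pore-forming component, fell by 0.59.

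Both fluid-phase regulators tested fell, Vtn (vitronectin, which blocks membrane insertion of the attack complex) by 2.41 ± 0.23 and Clu (clusterin) by 0.20. Of the membrane regulators, 2 of 3 rose, namely Cd59b by 0.36 and Cr1l by 0.18. Receptors rose in 4 of 6 cases, with Itgax, the alpha chain of complement receptor 4, higher by 2.03 and C5ar1, the C5a receptor, by 1.12. Treatment comparisons averaged over days called 0 of the 23 in heart, where 9 had an unadjusted p below 0.05 for CsA plus peptide minus untreated and 6 for CsA minus untreated. In T cells 0 of 22 were called in any day or treatment comparison, with 1 to 9 at an unadjusted p below 0.05.

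**Figure D4:**
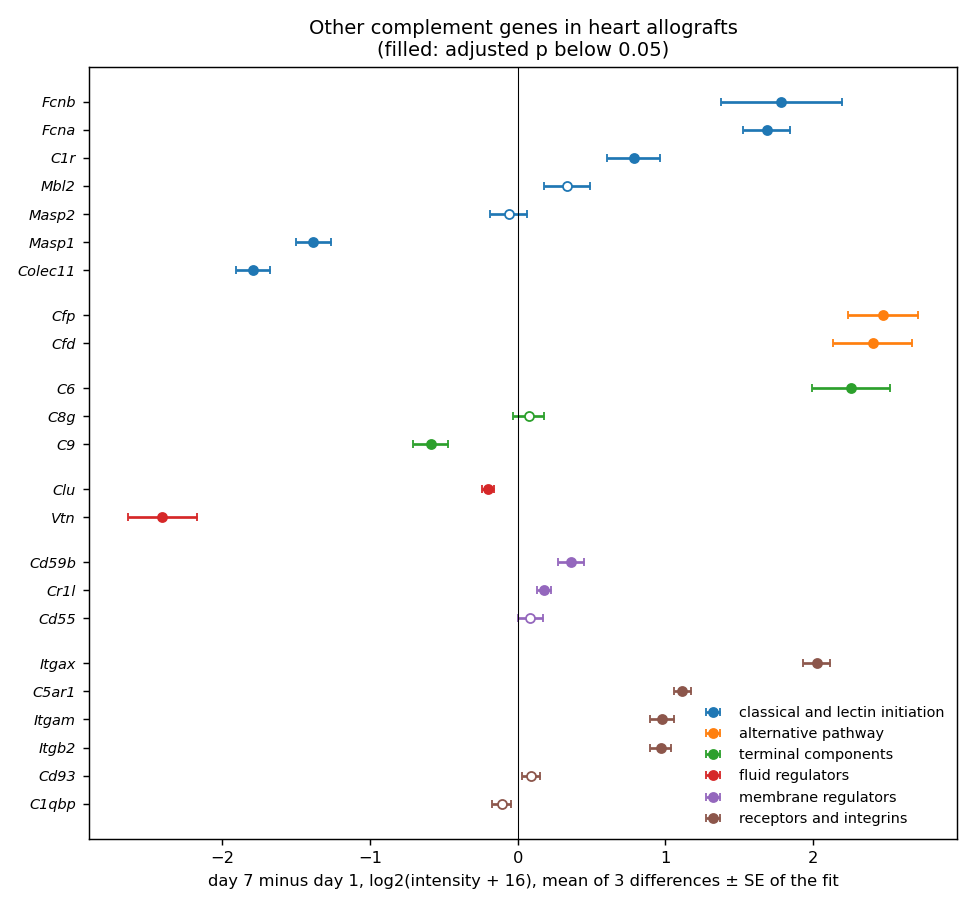
Day 7 minus day 1 difference in heart allografts (log2 scale, point and SE over 3 same-treatment pairs) for the other complement genes, grouped by role, with filled points for those past an adjusted p of 0.05. Cfp, Cfd and C6 lie above 2 and Vtn lies below -2.

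Between tissues, 12 of 27 other complement genes tested were higher in T cells and 12 lower, where 47.9% of all probe sets were higher and 35.5% lower. Within a single tissue, 23 were tested in heart and 22 in T cells. Some of the 27 were thus dim in 1 tissue and entered this fit through the other alone, so no test is read from these counts. As values with no test read, Cr2, the C3d receptor of B cells, was higher in T cells by 5.17, while Clu (-6.23), C1r (-4.24) and Masp1 (-3.80) were lower there. The day 7 minus day 1 change in T cells minus that in heart was -2.61 for Cfp and -2.31 for Cfd. Both genes were tested in each tissue, and both differences passed. C6 (-2.32) and Vtn (2.76) are given as values with no test read, since Vtn was not tested within T cells and few terminal components were.

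The genes most like each member over the 9 heart arrays were ranked by Pearson's r among 11151 genes, members left out, as a description. C1s was most like C1r (r 0.974), C3 most like Plscr1 (0.994) and Vcam1 (0.990), and Serping1 most like Cp (0.990). C1qb and C1qc correlated with each other at 0.9996, and the gene outside the members most like each was Rhog (0.998 for each). Among non-members C1qa was most like C130050O18Rikl (0.998), and C3ar1 most like Arl11 (0.981). Among members, C3 and Serping1 correlated at 0.95, while C1s and C3ar1 correlated at 0.38. Over the 9 T cell arrays the non-member most like C1qa and C1qc was Fcgrt (0.975 and 0.948), and that most like C3 was Zfp710 (0.988). C1qc correlated there with C1qa and C1qb at 0.964 each. Many genes share the course over days, and these 9 arrays share 3 days and 3 treatments.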

How the data were processed

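RNA from 18 samples (9 T cell, 9 heart) was labelled with biotin and hybridised to rat arrays, per the labels' protocols. The values deposited by the authors are linear intensities, and how they were summarized and normalized is not given in the sources used. Of these, 0.138% lay below 0 and were set to 0. Tests ran on log2(intensity + 16) without rescaling. The table holds 31099 probe sets, of which 57 controls were left out. The 436 probe sets with several symbols named no gene. Tested probe sets exceeded their array's 40th percentile on 3 or more of the arrays fitted.

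limma 3.58.1 in R 4.3.3 fitted treatment and day within each tissue, tissue with treatment and day over all 18 arrays, and the interactions of tissue with both, with a variance trend and Benjamini-Hochberg adjustment over all probe sets tested. Treatment is tested over 3 days and day over 3 treatments. No combination has a second array, and the labels do not say whether arrays share an animal, so p-values reflect only how these samples vary, and that variation may be technical. The number of arrays limits the precision.

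The members, gene lists and tests were chosen with earlier results of these data known. Named other complement genes are the 4 largest differences among those called, the receptors and regulators named by role being added after their values were seen. Alternatives were other normalizations, pseudocounts and filters, no trend, a block for the treatment and day, and arrays left out. Promoters came from RefSeq (GRCr8).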

Additional observations from a re-analysis of the deposited data

Results flagged for a closer look

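The day 7 minus day 1 change differed between T cells and heart allografts for C1qa, C1qb, C1qc, C3 and C1s, by a test of the difference itself (limma, adjusted over all probe sets). The difference (T cells minus heart, log2 scale) was -2.32 for C1qa, -2.60 for C1qb, -2.29 for C1qc and -4.26 for C3. It was -1.05 for C1s. For C3ar1 (-0.98) and Serping1 (-0.72) the T cell values were mostly below the 40th percentile of the array, and no test is read from them. For C1qa the day 3 minus day 1 change differed between the tissues by -0.57, a call lost with the treatment-day combination as a block (adjusted p 0.0526) and without the untreated day 1 T cell array (adjusted p 0.0592).

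The day 7 minus day 3 change in heart differed between the CsA groups and untreated grafts for C3 by 3.02, for C1s by 0.83 and for Serping1 by 0.57. This fit was chosen on these genes after their crossover was seen and rests on 1 untreated array per day, so it describes the crossover. Without a variance trend none of the 3 passed (adjusted p 0.0839 for C3, 0.134 for C1s and 0.189 for Serping1).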

How the results depend on the processing

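No member result past the threshold changed its sign under an alternative run here. Of 323 alternative values of the 35 member results past the threshold, 292 kept their side of it and 31 did not. The 35 include the tissue results of Serping1 and C3ar1, from which no test is read. They also include the 3 crossover results in heart, which are no independent test. In heart, the day 3 minus day 1 count of members called was 3 in place of 5 without the CsA arrays (1990 of all probe sets in place of 5418, and 1587 without the CsA plus peptide arrays and 3482 without the untreated ones), settings that leave fewer arrays, and 7 without the untreated arrays. Day 7 minus day 3 gave 3 in place of 5 without the CsA arrays (7287 of all probe sets in place of 11125) and 3 without the CsA plus peptide arrays, but 6 without the untreated arrays. In T cells, day 7 minus day 1 called 112 probe sets, against 201 under centring, 53 without a variance trend, 34 without the untreated day 1 array and 0 without any 1 treatment, none of them a member. T cells minus heart gave 4 in place of 7 without the day 1 arrays and 4 without the day 3 arrays, the C1q genes being those lost, where the counts include Serping1 and C3ar1, which entered through heart alone. The tissue difference in day 3 minus day 1 gave 0 in place of 1 with the treatment-day combination as a block (644 of all probe sets in place of 1965) and 0 without the untreated day 1 T cell array (1287), with 613 without the day 7 arrays. CsA plus peptide minus untreated in T cells gave 1 in place of 0 without the day 1 arrays (2489 of all probe sets in place of 0). The fit that joins the CsA groups gave 0 in place of 3 without a variance trend, and the cause was not tested. Centring on array medians moved the higher share of all calls to 66.5% in place of 47.7% for the tissue difference in day 3 minus day 1, and to 65.2% in place of 75.9% for day 7 minus day 1 in T cells. Averaging several probe sets per gene was not run, because each member has 1. The labels give no replicate numbers, and the block used here joins the T cell and heart arrays of the same treatment and day.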
